A study of Arabidopsis thaliana with 21 samples.

Results

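The EXORDIUM family of Arabidopsis thaliana was followed through 21 libraries of a study of AtDXO1 (DXO1). Its members were taken by locus identifier, and all 8 genes that RefSeq (assembly TAIR10.1) names EXORDIUM or EXORDIUM like were found, out of 33602 genes with an mRNA value and 32420 genes with a place in the small RNA tables. They are EXO (AT4G08950), EXL1 (AT1G35140, also called PHI-1), EXL2 (AT5G64260), EXL3 (AT5G51550), EXL4 (AT5G09440), EXL5 (AT2G17230), EXL6 (AT3G02970) and EXL7 (AT2G35150), named as the mRNA table names them; RefSeq lists overlapping synonyms for EXL1 and EXL7. The family was put forward with its small RNA values over the plant lines in view, so those values are a description and carry no test. Its mRNA values were tested, but they too were known when the family was chosen, and a p-value here is no independent evidence that the family stands apart from other genes.

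The mRNA libraries came from 16-day-old plants labelled dxo1-1, plants labelled dxo1-2, and wild-type Col-0, with 3 replicates each. The small RNA libraries came from 10-day-old plants of the cross dxo1-2dcl4-2, of the single mutants dxo1-2 and dcl4-2, and of Col-0, again with 3 replicates each. The labels name a single line per genotype and give neither the kind of lesion in any allele nor whether replicates were separate cultures, so p-values measure only a spread between samples that may be technical. All plants were started on plates with sucrose and moved to soil, and the tissue label of each sample is rosette leaves although the small RNA protocol speaks of seedlings. No mRNA of dcl4-2 or dxo1-2dcl4-2 and no small RNA of dxo1-1 was analysed here.

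EXORDIUM proteins are secreted into the cell wall space of plants. EXO is induced by brassinosteroids, the plant steroid hormones, and promotes leaf growth by cell expansion, and EXL1 is needed for normal growth when carbon or energy is scarce. DXO1 removes the NAD cap that some RNAs carry in place of the usual cap. Plant mRNAs that escape decay can be copied into double-stranded RNA, which Dicer-like enzymes cut into small interfering RNAs: DCL4 makes the 21-nt class, DCL2 the 22-nt class when DCL4 is absent, and DCL3 the 24-nt class.

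The libraries differed in depth and in overall level. FPKM (fragments per kilobase of transcript, scaled to depth) came from an estimated 17.3 to 20.7 M fragments per library, and libraries of a group correlated at 0.9897 to 0.9927 over genes. The estimated mean fragment length was 375 bases in the 6 libraries labelled as dxo1-1 or dxo1-2 and in Col-0 replicate 2 and 325 bases in Col-0 replicates 1 and 3, and its part in the results was not tested. Reads recovered from the 3 small RNA tables summed to 728418 to 1403794 per library in dxo1-2dcl4-2, 288852 to 893943 in dxo1-2, 195104 to 303428 in dcl4-2 and 173804 to 482309 in Col-0, which is the part of each library assigned to genes and not its full depth. Small RNA libraries of a group were less alike than the mRNA libraries. They correlated at 0.743 to 0.887 in the 21-nt, 0.715 to 0.833 in the 22-nt and 0.521 to 0.85 in the 24-nt class. These values cover 782, 1099 and 2188 genes. DXO1 itself stood at 192.7, 195.5 and 248.6 FPKM in the libraries labelled as dxo1-1, at 6.67, 5.88 and 7.64 FPKM in dxo1-2, and at 10.04, 11.97 and 10.77 FPKM in Col-0. The level in the libraries labelled as dxo1-1 goes against a simple loss of the transcript, and one value per gene leaves unknown which stretch of the transcript was present. The leaf mesophyll markers RBCS1A, LHCB1.3 and LHCB1.2 were abundant in every mRNA library, and the seed markers CRU3 and OLEO1 were listed at 0 throughout.

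EXO mRNA was higher than in Col-0 both in the libraries labelled as dxo1-1 and in dxo1-2, while EXL3 mRNA was lower in both. EXL4 rose and EXL1 and EXL5 fell in the libraries labelled as dxo1-1, with dxo1-2 near the wild-type level on the deposited scale. EXL6 was listed at 0 in nearly every library and EXL7 was barely detected, so 6 of the 8 members passed the filter on low values, a mean of 1 FPKM or more in the mRNA libraries. The test was limma on log2(FPKM + 1), which understates changes of low genes, with Benjamini-Hochberg adjustment over the 18378 genes that passed that filter and a threshold of 0.05.

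EXO had 83.24, 75.81 and 74.78 FPKM in the libraries labelled as dxo1-1, 107.76, 108.72 and 103.03 FPKM in dxo1-2, and 30.07, 30.43 and 28.61 FPKM in Col-0. All 6 libraries labelled as dxo1-1 or dxo1-2 lay far above the 3 wild-type libraries, and the alleles did not overlap each other. EXO averaged 77.9 ± 4.62 FPKM in the libraries labelled as dxo1-1, 106.5 ± 3.05 FPKM in dxo1-2 and 29.7 ± 0.964 FPKM in Col-0 (SD, n = 3 each). By limma the log2 change was 1.36 (SE 0.052, adjusted p = 8.51e-10) in the libraries labelled as dxo1-1 and 1.81 (SE 0.052, adjusted p = 1.28e-10) in dxo1-2. As a ratio of mean FPKM these were 2.62-fold and 3.59-fold higher levels. Since both comparisons use the same 3 Col-0 libraries, they are not independent of each other.

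EXL3 was the most abundant member in wild-type plants and the only one besides EXO that changed the same way in both comparisons with Col-0 with its call kept under every scaling tried. It had 58.7, 55.02 and 54.39 FPKM in the libraries labelled as dxo1-1, 71.17, 68.4 and 68.81 FPKM in dxo1-2, and 102.62, 103.96 and 95.75 FPKM in Col-0. None of the 6 libraries labelled as dxo1-1 or dxo1-2 reached the lowest wild-type value. The log2 change by limma was -0.84 (SE 0.048, adjusted p = 2.69e-08) in the libraries labelled as dxo1-1 and -0.53 (SE 0.048, adjusted p = 1.57e-06) in dxo1-2.

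EXL4 separated the alleles most. It had 78, 84.82 and 73.59 FPKM in the libraries labelled as dxo1-1, 43.2, 40.86 and 37.45 FPKM in dxo1-2, and 43.46, 43.71 and 40.1 FPKM in Col-0. The libraries labelled as dxo1-1 stood clear of the rest, and the dxo1-2 and Col-0 libraries overlapped. The log2 change by limma was 0.88 (SE 0.068, adjusted p = 3.49e-07) in the libraries labelled as dxo1-1 and -0.07 (adjusted p = 0.394) in dxo1-2. The difference of dxo1-2 from the libraries labelled as dxo1-1 was -0.94 (SE 0.068, adjusted p = 2.81e-06).

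EXL5 showed the opposite split. It had 27.29, 21.48 and 23.83 FPKM in the libraries labelled as dxo1-1, 42.5, 40.11 and 39.77 FPKM in dxo1-2, and 42.95, 44.74 and 40.76 FPKM in Col-0. Its log2 change by limma was -0.80 (SE 0.078, adjusted p = 2.38e-06) in the libraries labelled as dxo1-1 and -0.07 (adjusted p = 0.449) in dxo1-2, and dxo1-2 lay 0.74 above the libraries labelled as dxo1-1 (adjusted p = 4.05e-05). EXL1, the low-energy growth gene, followed the same pattern at a lower level. It had 13.92, 11.72 and 12.39 FPKM in the libraries labelled as dxo1-1, 17.59, 17.78 and 18.05 FPKM in dxo1-2, and 18.87, 18.23 and 17.62 FPKM in Col-0. Its log2 change by limma was -0.50 (SE 0.067, adjusted p = 4.08e-05) in the libraries labelled as dxo1-1 and -0.03 (adjusted p = 0.679) in dxo1-2, with dxo1-2 above the libraries labelled as dxo1-1 by 0.46 (adjusted p = 0.000361). For both genes the dxo1-2 and Col-0 libraries overlapped and the libraries labelled as dxo1-1 lay below them.

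EXL2 was lower in dxo1-2 by a small step. It had 65.68, 62.31 and 63.2 FPKM in the libraries labelled as dxo1-1, 58.08, 58.31 and 55.96 FPKM in dxo1-2, and 70.47, 66.21 and 66.75 FPKM in Col-0. The groups did not overlap, but the steps between them were small. Its log2 difference by limma was -0.09 (adjusted p = 0.0913) in the libraries labelled as dxo1-1 and -0.24 (SE 0.044, adjusted p = 0.000551) in dxo1-2. The difference between the alleles, -0.15 for dxo1-2 against the libraries labelled as dxo1-1 (adjusted p = 0.0228), no longer passed limma's test without replicate 1 labelled as dxo1-1 (-0.13, adjusted p = 0.0902) or without dxo1-2 replicate 3 (-0.13, adjusted p = 0.0847).

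EXL7 had 0.54, 0.22 and 0.55 FPKM in the libraries labelled as dxo1-1, 0.58, 0.27 and 0.61 FPKM in dxo1-2, and 1.25, 1.93 and 1.1 FPKM in Col-0. The libraries labelled as dxo1-1 and those of dxo1-2 lay below those of Col-0, at levels that rest on few fragments. Without the filter on low values its log2 change by limma was -0.75 (adjusted p = 0.0023) in the libraries labelled as dxo1-1 and -0.70 (adjusted p = 0.00367) in dxo1-2. EXL6 was listed at 0.07 FPKM in replicate 1 labelled as dxo1-1 and at 0 in the other libraries, and no change is given for it.

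**Figure D1:**
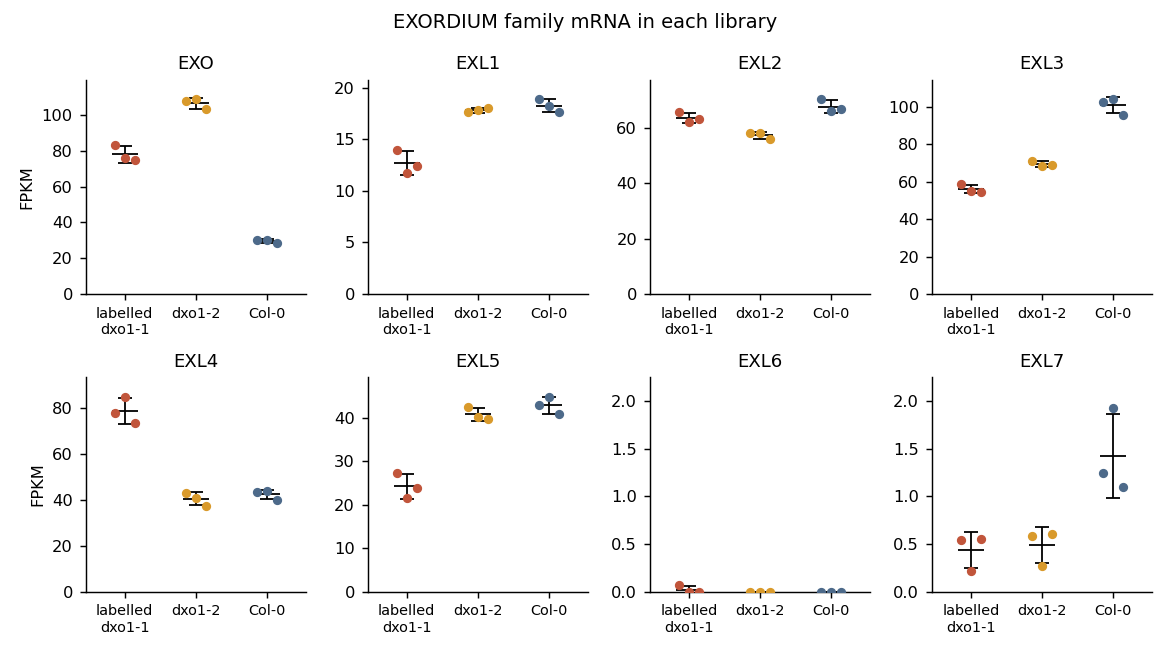
FPKM of the 8 EXORDIUM family genes in each mRNA library (points), with the mean and SD of 3 libraries (black), for the libraries labelled as dxo1-1, for dxo1-2 and for Col-0, each panel on its own axis from 0. EXO lies between 74.78 and 108.72 FPKM in the libraries labelled as dxo1-1 and in dxo1-2, and at 28.61 to 30.43 FPKM in Col-0, while EXL4 is raised only in the libraries labelled as dxo1-1.

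In the libraries labelled as dxo1-1, 2 of the 6 tested members were higher and 3 were lower than in Col-0, against 49.6% of all tested genes called higher and 26% called lower. In dxo1-2, 1 member was higher and 2 were lower, against 51.8% and 21.2% of all tested genes. Between the alleles, 4 members were higher and 2 lower in dxo1-2, against 22.3% and 15.7% of all tested genes. With so many genes called, a share of called members near the background says nothing particular about the family. The median log2 change over the 6 tested members was -0.29, -0.07 and 0.38 in these 3 comparisons, beside 0.21, 0.25 and 0.06 over all tested genes.

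These directions depend in part on how the libraries are put on one scale. Centring each library on its median moved the median of all tested genes from 0.21 to -0.10 in the libraries labelled as dxo1-1 and from 0.25 to -0.10 in dxo1-2, and quantile normalization moved it to -0.09 and -0.07. EXO stayed higher under both, at 1.05 and 0.97 in the libraries labelled as dxo1-1 and at 1.46 and 1.44 in dxo1-2. After centring, 4 members were lower in the libraries labelled as dxo1-1 and 5 in dxo1-2, since EXL2 (-0.40, adjusted p = 5.1e-05) now passed limma's test in the libraries labelled as dxo1-1, and EXL1 (-0.39), EXL4 (-0.42) and EXL5 (-0.42) in dxo1-2. The same shift split all tested genes into 6325 higher and 8002 lower in the libraries labelled as dxo1-1, where the deposited scale gave 9116 and 4786, and into 5932 higher and 7807 lower in dxo1-2, where it gave 9520 and 3890.

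**Figure D2:**
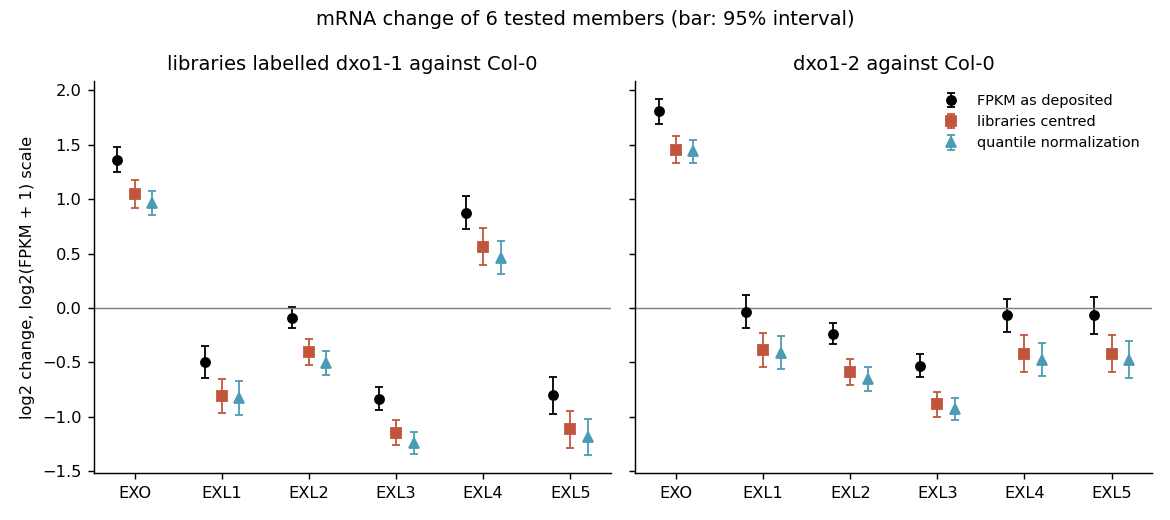
log2 change of 6 members on the log2(FPKM + 1) scale, with 95% intervals, in the libraries labelled as dxo1-1 (left) and dxo1-2 (right) against Col-0, on the deposited FPKM scale (circles), with libraries centred (squares) and after quantile normalization (triangles). EXO stays above 0 and EXL3 below 0 under all 3 scalings in both panels, while EXL1, EXL4 and EXL5 in dxo1-2 lie near 0 on the deposited scale and below it under the others.

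The order of the members by FPKM differed between the groups. In the libraries labelled as dxo1-1, EXL4 and EXO came first with overlapping libraries, followed by EXL2, EXL3, EXL5 and EXL1. In dxo1-2, EXO came first, then EXL3 and EXL2, then EXL5 and EXL4 with overlapping libraries, then EXL1. In Col-0 the order was EXL3, EXL2, EXL5 and EXL4 with overlapping libraries, EXO, and EXL1. The FPKM of the 8 members together came to 313.8 ± 12.5 in the libraries labelled as dxo1-1, 333 ± 8.69 in dxo1-2 and 303.2 ± 10.8 in Col-0 (SD, n = 3 each). EXO made up 24.8 ± 0.548% of it in the libraries labelled as dxo1-1, 32.0 ± 0.467% in dxo1-2 and 9.80 ± 0.0762% in Col-0.

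Several cell type markers changed in the comparisons where EXO rose, and more of them fell than rose. Their calls are given on the deposited scale. Of all tested genes, that scale gave 49.6% higher and 26% lower for the label dxo1-1, and 51.8% and 21.2% for dxo1-2. The summed FPKM of the dividing cell markers KNOLLE, CYCB1;1 and CDKB2;1 ran from 19.8 to 23.0 in the libraries labelled as dxo1-1, from 25.7 to 29.7 in dxo1-2 and from 38.4 to 43.6 in Col-0, opposite in direction to EXO, and 2 of the 3 fell in both comparisons with Col-0. In dxo1-2 only 1 of the 3 fell without the filter on low values, with the replicate block or in a fit to 2 groups. The 3 mesophyll markers fell in both. After quantile normalization 1 of the 3 did, but that method gives genes of equal rank in each library equal values. It therefore cannot show a fall of a marker that keeps its rank. Of the 3 epidermis markers, ATML1 fell in both comparisons, PDF1 only in the libraries labelled as dxo1-1 and CER6 only in dxo1-2. Their summed levels were 449.5 to 473.4 FPKM in the libraries labelled as dxo1-1, 458.3 to 484.7 FPKM in dxo1-2 and 492.3 to 534.9 FPKM in Col-0. With centring or quantile normalization all 3 fell in both. The root markers, nearly all of it PYK10, summed to 365.7 to 372.8 FPKM in the libraries labelled as dxo1-1, 292.6 to 326.5 FPKM in dxo1-2 and 451.3 to 490.4 FPKM in Col-0, the inverse of the order of EXO. PYK10, the 1 of 3 root markers that was tested, fell by 0.33 and 0.58 on the log2 scale, while EXPA7 and COBL9 stayed at 0.59 FPKM or less. The guard cell markers summed to 26.6 to 31.1 FPKM in the libraries labelled as dxo1-1, 29.4 to 31.4 in dxo1-2 and 18.8 to 23.3 in Col-0, and 2 of the 3 rose and 1 fell in both, which centring turned into 1 higher, 1 lower and 1 that did not pass. The vascular markers summed to 114.4 to 126.7, 108.8 to 112.5 and 91.0 to 92.5 FPKM in the same order of groups, although 1 of the 4 rose in both and 3 fell in the libraries labelled as dxo1-1 and 2 in dxo1-2. After centring, 1 rose and 3 fell in the libraries labelled as dxo1-1, and 0 rose and 3 fell in dxo1-2, as in both after quantile normalization. The meristem and flower markers summed to 3.09 to 4 FPKM, 2.69 to 4.01 FPKM and 0.52 to 1.04 FPKM, nearly all of it STM, with CLV3 listed at 0 and WUS and AP1 at most 0.12 FPKM. The part of these markers in the EXO result was not tested, and in such whole-organ samples fewer cells of a type and less RNA per cell cannot be told apart.

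The lists of related genes were set up with earlier results of these data known, and the 3 genes named from each passed limma's test in both comparisons with Col-0. Beside each list stand the shares of all tested genes, 49.6% higher and 26% lower for the label dxo1-1, and 51.8% and 21.2% for dxo1-2. After centring, 6325 of all 18378 tested genes rose and 8002 fell for the label dxo1-1, against 5932 and 7807 for dxo1-2. List counts near these shares say nothing particular about a list. The genes of brassinosteroid synthesis and inactivation moved both ways. Of 10 tested, 4 were higher, 4 lower and 2 did not pass in the libraries labelled as dxo1-1 (median log2 0.01), and 3 were higher, 4 lower and 3 did not pass in dxo1-2 (median -0.13). After centring these counts were 3 and 5 in the libraries labelled as dxo1-1, and 2 and 7 in dxo1-2. BR6OX2, which makes the most active hormone brassinolide, averaged 33.4 ± 2.72 FPKM in the libraries labelled as dxo1-1, 18.4 ± 0.908 FPKM in dxo1-2 and 4.26 ± 0.896 FPKM in Col-0 (log2 2.72 and 1.90, limma adjusted p = 1.66e-09 and 4.23e-08). DWF1, a sterol synthesis enzyme upstream of the hormones, averaged 79.3 ± 0.796 FPKM in the libraries labelled as dxo1-1, 85.8 ± 3.43 FPKM in dxo1-2 and 217.6 ± 10.1 FPKM in Col-0 (log2 -1.44 and -1.33). BAS1, which inactivates brassinosteroids, averaged 1.98 ± 0.07 FPKM in the libraries labelled as dxo1-1, 3.08 ± 0.176 FPKM in dxo1-2 and 6.56 ± 0.581 FPKM in Col-0 (log2 -1.34 and -0.89).

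Brassinosteroid signalling genes moved both ways as well. Of 17 tested, 8 were higher, 5 lower and 4 did not pass in the libraries labelled as dxo1-1 (median log2 0.30), and 8 were higher, 6 lower and 3 did not pass in dxo1-2 (median 0.24). Centring left 6 higher and 7 lower in the libraries labelled as dxo1-1, and 6 higher and 8 lower in dxo1-2. BRL3, a brassinosteroid receptor, averaged 12.2 ± 0.125 FPKM in the libraries labelled as dxo1-1, 9.56 ± 0.499 FPKM in dxo1-2 and 1.93 ± 0.303 FPKM in Col-0 (log2 2.18 and 1.85). BKI1, an inhibitor of the receptor BRI1, changed by log2 1.24 and 1.45, and KDR, a small helix-loop-helix protein of growth control, by -1.59 and -1.22.

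Of the 12 cell wall and growth genes, all tested, 5 were higher, 5 lower and 2 did not pass in the libraries labelled as dxo1-1 (median log2 0.08), and 5 were higher and 7 lower in dxo1-2 (median -0.18), which centring turned into 4 and 8, and 2 and 9. WAK1, a receptor kinase bound to cell wall pectin, averaged 453.5 ± 20.7 FPKM in the libraries labelled as dxo1-1, 360.6 ± 12.2 FPKM in dxo1-2 and 39.7 ± 2.79 FPKM in Col-0 (log2 3.48 and 3.15). The tonoplast water channel TIP2;1 changed by log2 -1.47 and -1.90, and the arabinogalactan protein gene AGP4 by -1.64 and -1.15.

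The sugar starvation genes, set beside EXL1, were mostly lower. Of 8 tested, 3 rose and 5 fell in the libraries labelled as dxo1-1 (median log2 -1.87), and 1 was higher, 6 lower and 1 did not pass in dxo1-2 (median -1.34), with 2 and 5, and 1 and 6, after centring. ASN1, an asparagine synthetase induced in darkness, averaged 7.16 ± 0.635 FPKM in the libraries labelled as dxo1-1, 6.83 ± 0.488 FPKM in dxo1-2 and 85.8 ± 2.83 FPKM in Col-0 (log2 -3.41 and -3.47). DRM1, a dormancy-associated gene, changed by log2 -1.75 and -4.05, and the senescence-associated SEN1 by -2.34 and -2.08. Of the 5 low oxygen genes tested, 4 were higher and 1 did not pass in the libraries labelled as dxo1-1 and in dxo1-2 (median log2 1.79 and 1.24), and after centring 4 were still higher in each while 1 became lower in the libraries labelled as dxo1-1. The alcohol dehydrogenase ADH1 changed by log2 2.36 and 2.60, the sucrose synthase SUS1 by 2.47 and 1.76, and the haemoglobin gene HB1 by 1.79 and 1.24. Between the alleles, in dxo1-2 against the libraries labelled as dxo1-1, 2 genes were higher and 4 lower of the brassinosteroid synthesis list, 3 and 2 of the signalling list, 2 and 9 of the cell wall list, 2 and 4 of the sugar starvation list, and 0 and 2 of the low oxygen list. Of all tested genes, 22.3% were higher and 15.7% lower in this comparison.

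By the correlation of log2(FPKM + 1) over the 9 libraries, the genes most like EXO were AT3G60440 (Pearson r 0.9983), the lipid transfer protein gene LTP4 (0.9981) and AT3G17520 (0.998). All 3 were highest in dxo1-2 and lowest in Col-0: LTP4, for example, averaged 431.2 FPKM in the libraries labelled as dxo1-1, 920.1 FPKM in dxo1-2 and 50.0 FPKM in Col-0. The genes most like EXL3 were TIM (0.9981), the chloroplast triose phosphate isomerase, AT1G49490 (0.9976) and TLL1 (0.9973). With 3 groups of 3 libraries, such correlations describe the order and spacing of the groups.

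Small RNAs at the family were abundant in dxo1-2dcl4-2 at EXO, EXL5, EXL2 and EXL3, and scarce in the single mutants and Col-0. The 22-nt class led in dxo1-2dcl4-2, and the 21-nt class led in dxo1-2, where EXO was the main member. Values below are the authors' normalized reads per gene, scaled separately in each size class, so that levels of different classes are not on one common scale. At EXL6 and EXL7 there were 0 reads in every library and class, and at EXL1 there were 8 reads of 21-nt, 9 reads of 22-nt and 0 reads of 24-nt RNA over all 12 libraries.

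At EXO, 22-nt RNAs stood at 5517, 6237 and 5911 normalized reads in dxo1-2dcl4-2, at 12.38, 22.72 and 11.38 in dxo1-2, at 0 in all 3 dcl4-2 libraries, and at 0, 1.508 and 0 in Col-0. The dxo1-2dcl4-2 values rest on 22771 reads, those of dxo1-2 on 77, and those of Col-0 on 2. The level in dxo1-2dcl4-2 was at least 3997-fold higher than in dcl4-2, taking 3 reads over the group as the floor for dcl4-2. This bound was 2290 without dcl4-2 replicate 3, and 1614 with scaling to the recovered reads of the 3 classes. The level was 8.52 log2 units above dxo1-2, after 0.5 was added to each group mean. Against Col-0 the ratio was 8052, with a 95% interval of 2229 to 66493 that covers counting error only. The 2 Col-0 reads lay in replicate 2, and without that library the level was at least 2783-fold higher. The small numbers of reads in the controls set the width of that interval, and no fold of this size should be read as precise.

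At EXO, 21-nt RNAs stood at 2216, 2589 and 2318 normalized reads in dxo1-2dcl4-2, at 54.92, 54.79 and 61.96 in dxo1-2, at 0 in all 3 dcl4-2 libraries, and at 0, 0 and 3.904 in Col-0. The order of the lines was the same as for 22-nt RNAs, with a smaller gap between the cross and dxo1-2. The level in dxo1-2dcl4-2 was 5.36 log2 units above dxo1-2 and at least 1810-fold higher than in dcl4-2 (1085 without dcl4-2 replicate 3), and the level in dxo1-2 was 5.00 log2 units above Col-0. That last value rests on 4 Col-0 reads, all in replicate 3. Without that library no Col-0 read was left, and the value of 6.85 then depends on the 0.5 added to each mean. In dcl4-2, 0 of 299793 recovered 21-nt reads and 0 of 213771 22-nt reads lay at EXO, which allows shares of up to 0.001001% and 0.00140%.

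At EXO, 24-nt RNAs stood at 902.6, 885.5 and 918.7 normalized reads in dxo1-2dcl4-2, at 6.861, 1.797 and 2.65 in dxo1-2, at 1.983, 4.933 and 0 in dcl4-2, and at 2.658, 0 and 0 in Col-0. The cross stood 7.72 log2 units above dxo1-2 and at a ratio of 532 to dcl4-2 (95% counting interval 182 to 2580), which was 1230 without dcl4-2 replicate 2 and 273 without dcl4-2 replicate 3, while dxo1-2 and Col-0 overlapped. Of all recovered reads of a class, EXO took 0.900 ± 0.0114% of 21-nt, 1.22 ± 0.0201% of 22-nt and 0.554 ± 0.0249% of 24-nt reads in dxo1-2dcl4-2 (SD, n = 3). This placed it at ranks 14, 11 and 13 among 32420 genes. In dxo1-2 the shares were 0.0426 ± 0.0045%, 0.0232 ± 0.00916% and 0.00439 ± 0.00312%, at ranks 156, 605 and 3807.

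EXL5 came second in the cross in the 21-nt and 22-nt classes. Its 22-nt RNAs stood at 769.3, 1002 and 1039 normalized reads in dxo1-2dcl4-2, at 1.238, 4.132 and 1.951 in dxo1-2, at 3.508, 0 and 0 in dcl4-2, and at 0 in Col-0. Its 21-nt RNAs stood at 356.6, 371.2 and 449.2 normalized reads in dxo1-2dcl4-2 and at 1.505, 1.054 and 4.534 in dxo1-2, with 0 reads in dcl4-2 and in Col-0. Its 24-nt RNAs stood at 62.86, 51.76 and 41.76 normalized reads in dxo1-2dcl4-2, with 0 reads in dxo1-2 and in dcl4-2 and 3 reads in a single Col-0 library. The cross thus stood apart from the other lines in all 3 classes, by 8.32 log2 units over dxo1-2 in 22-nt RNAs, 7.10 log2 units in 21-nt RNAs and at least 141.6-fold in 24-nt RNAs (65.7 without dxo1-2 replicate 3). In dxo1-2 the gene had only 15 reads of 21-nt and 12 reads of 22-nt RNA.

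EXL2 was the member with the most reads in Col-0. Its 22-nt RNAs stood at 195.5, 196.5 and 258.2 normalized reads in dxo1-2dcl4-2, at 0.619, 9.296 and 3.903 in dxo1-2, at 7.016, 9.914 and 20.55 in dcl4-2, and at 7.755, 6.03 and 21.92 in Col-0. The cross lay 5.41 log2 units above dxo1-2 and 4.06 above dcl4-2, and the other 3 lines overlapped. Its 21-nt RNAs stood at 62.51, 93.01 and 94.89 normalized reads in dxo1-2dcl4-2, at 20.31, 16.86 and 14.36 in dxo1-2, at 13.97, 0 and 9.777 in dcl4-2, and at 2.739, 10.05 and 4.88 in Col-0. In this class dxo1-2 also lay above Col-0, by 1.47 log2 units. Its 24-nt RNAs stood at 43.01, 48.94 and 67.11 normalized reads in dxo1-2dcl4-2 and at 0 to 12.33 in the other lines.

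EXL3, the most abundant mRNA of the family in Col-0, had few small RNAs there. Its 22-nt RNAs stood at 156.6, 153.7 and 231.6 normalized reads in dxo1-2dcl4-2, at 0, 4.132 and 9.106 in dxo1-2, at 0 in dcl4-2, and at 0, 0.7538 and 0 in Col-0. The cross lay 5.20 log2 units above dxo1-2 and was at least 117.8-fold higher than dcl4-2 (67.5 without dcl4-2 replicate 3). Its 21-nt RNAs stood at 33.39, 63.5 and 12.65 normalized reads in dxo1-2dcl4-2, at 15.8, 26.34 and 23.8 in dxo1-2, at 0 in dcl4-2, and at 2.739, 0.718 and 0 in Col-0. Here the cross and dxo1-2 overlapped, and dxo1-2 stood above Col-0 at a ratio of 23.2 (95% counting interval 7.74 to 114.3, and 53.5 without Col-0 replicate 1). Its 24-nt RNAs numbered 10 reads in dxo1-2dcl4-2, 7 in dxo1-2, 6 in dcl4-2 and 2 in Col-0.

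In dxo1-2dcl4-2, EXL4 had the fewest reads of the members with any appreciable level, although its mRNA level in dxo1-2 overlapped that of EXL5. This did not hold in the other lines. In dxo1-2, EXL4 had 25, 2 and 9 reads of 21-nt, 22-nt and 24-nt RNA, where EXL5 had 15, 12 and 0. In Col-0 it had 16 reads of 21-nt RNA, more than any member but EXL2 with 21. Its 21-nt RNAs stood at 28.41, 12.52 and 15.18 normalized reads in dxo1-2dcl4-2, at 1.505, 3.161 and 7.556 in dxo1-2, at 3.105, 12.31 and 3.259 in dcl4-2, and at 1.37, 5.744 and 6.831 in Col-0. Its 22-nt RNAs stood at 2.901, 5.353 and 32.42 normalized reads in dxo1-2dcl4-2, so replicate 3 set the mean, and at 0 to 7.016 in the other lines. Its 24-nt RNAs numbered 8 reads in dxo1-2dcl4-2, 9 in dxo1-2, 3 in dcl4-2 and 17 in Col-0, with overlapping groups.

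**Figure D3:**
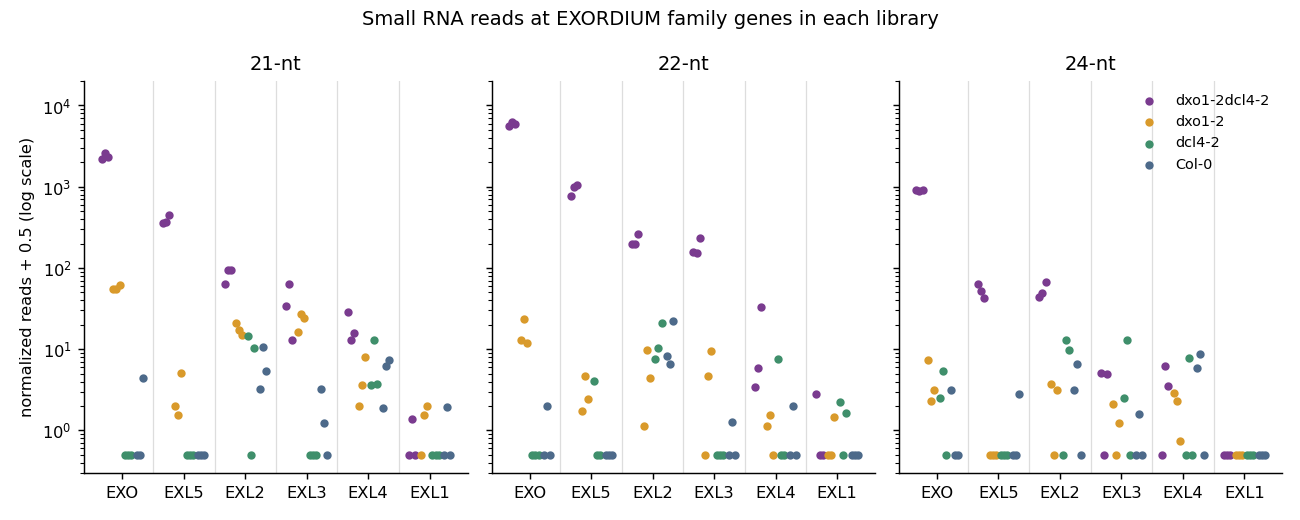
Normalized reads plus 0.5, on a log scale, of 21-nt, 22-nt and 24-nt RNAs at 6 members in each library of dxo1-2dcl4-2, dxo1-2, dcl4-2 and Col-0, where points at the bottom are libraries with 0 reads. The dxo1-2dcl4-2 libraries reach 5517 to 6237 at EXO in the 22-nt class and stand apart from the other lines in that class at EXO, EXL5, EXL2 and EXL3.

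Of the 5 members with a mean of at least 1 normalized read in a class, which were EXO, EXL2, EXL3, EXL4 and EXL5 in every class, the dxo1-2dcl4-2 libraries were all above the dxo1-2 libraries for 4 members in the 21-nt class (4.35% of all genes of that level), 5 in the 22-nt class (6.24%) and 3 in the 24-nt class (6.74%). Against dcl4-2 they were all above for 5 (6.25%), 4 (7.35%) and 3 members (6.14%) in the same order of classes, and against Col-0 for 5 (5.77%), 5 (7.15%) and 3 members (6.8%). The dxo1-2 libraries were all above those of Col-0 for 4 members in the 21-nt class (13.5%), 2 in the 22-nt class (8.66%) and 0 in the 24-nt class (6.34%). The dcl4-2 libraries were all above those of Col-0 for 0 members in each class (3.24%, 4.3% and 4.9%). Lower without overlap were 0 of the 5 members in each of these comparisons, and nothing is read from this, since members that passed the minimum mean through their level in the cross could not be lower there and had few reads to compare in the other lines. The shares of all genes lower were 14.9%, 10.5% and 12.9% for the cross against dxo1-2 in the 21-nt, 22-nt and 24-nt classes, 5.04%, 5.88% and 7.87% for the cross against dcl4-2, and 7.03%, 7.58% and 12.2% for the cross against Col-0. They were 3.19%, 5.14% and 7.8% for dxo1-2 against Col-0, and 5.77%, 6.51% and 6.37% for dcl4-2 against Col-0. A member that passed the minimum mean through its level in the cross, as EXL5 did in every class and EXL4 in the 22-nt class, was bound to be high there. Nothing is therefore read from its being higher in the cross. Since the family was chosen on these values, its counts are a description beside the shares over all genes. The comparisons of a line with Col-0 share the same Col-0 libraries.

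The size of these differences depends on the scaling, and the recovered reads differ in number between the lines. Scaled to the recovered reads of the 3 classes together, EXO in dxo1-2dcl4-2 stood 3.83 log2 units above dxo1-2 in 21-nt RNAs, 7.05 in 22-nt RNAs and 5.58 in 24-nt RNAs. Against dcl4-2 it was then at least 556-fold higher in 21-nt RNAs and at least 1614-fold higher in 22-nt RNAs, with a ratio of 207 in 24-nt RNAs. EXL5 stood 6.93 log2 units above dxo1-2 in 22-nt RNAs and 5.68 in 21-nt RNAs, EXL2 stood 3.97 above in 22-nt and 0.75 in 21-nt RNAs, and EXL3 stood 3.75 above in 22-nt RNAs. Some directions turned. The 21-nt RNAs of EXL4 went to -0.20 against dcl4-2, where the authors' scale gave 1.51, and those of EXL3 to -0.85 against dxo1-2, where it gave 0.72 with overlapping groups. With 10 reads or fewer in the cross, the 24-nt RNAs of EXL3 went to -0.24 against dxo1-2 (1.47 on the authors' scale), and those of EXL4 to -1.08 (0.77). On this scaling the cross lay above dxo1-2 without overlap for 3, 5 and 3 members in the 21-nt, 22-nt and 24-nt classes (1.67%, 2.75% and 1.19% of all genes), above dcl4-2 for 4, 4 and 3 (3.12%, 4.01% and 1.94%), and above Col-0 for 4, 4 and 3 (2.45%, 3.66% and 1.49%).

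The sizes of the small RNAs also differed between the lines. Of the EXO reads of the 3 classes, 67.9 ± 0.231% were 22-nt in dxo1-2dcl4-2 and 21.3 ± 6.70% in dxo1-2 (SD, n = 3 each). The 21-nt share was 23.6 ± 1.10% in dxo1-2dcl4-2 and 71.0 ± 6.26% in dxo1-2, and no library of either line overlapped the other in these shares. EXL2 had 65.3 ± 3.29% 22-nt reads in dxo1-2dcl4-2 and 19.5 ± 16.6% in dxo1-2, where it rests on 25 to 61 reads per library. EXL3 had 83.7 ± 10.0% in dxo1-2dcl4-2 and 14.5 ± 14.9% in dxo1-2, on 25 to 94 reads per library. EXL5, with too few reads in dxo1-2 for a share, had 70.9 ± 2.42% in dxo1-2dcl4-2. EXL4 had 34.6 ± 28.8% there, with libraries from 11.1 to 66.7%, which is too wide to place.

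The same shift was present in all genes together, in a smaller measure. Over all recovered reads the 22-nt share was 57.2 ± 0.491% in dxo1-2dcl4-2, 22.1 ± 0.676% in dxo1-2, 30.8 ± 1.32% in dcl4-2 and 22.8 ± 1.32% in Col-0. A few loci with very many reads weigh on such a sum. Of 444 genes with at least 300 recovered reads in dxo1-2dcl4-2, the median 22-nt share was 34.1%, and 64 had a higher share than EXO. The 24-nt share of EXO, 8.58 ± 1.02% in dxo1-2dcl4-2 and 7.78 ± 6.78% in dxo1-2, stood beside 15.9 ± 2.07% and 38.2 ± 4.43% over all recovered reads of these lines.

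**Figure D4:**
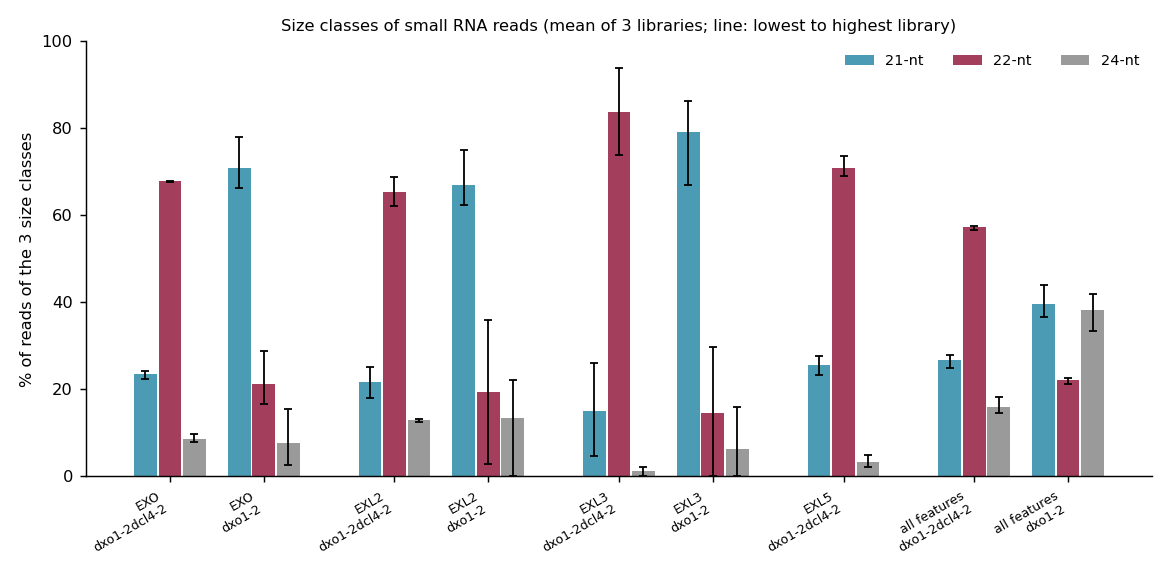
Share of 21-nt, 22-nt and 24-nt reads among the recovered reads of the 3 classes, in percent, as the mean of 3 libraries with a line from the lowest to the highest library, at EXO, EXL2, EXL3 and EXL5 and over all genes, in dxo1-2dcl4-2 and dxo1-2. At EXO the 22-nt class holds 67.9% in dxo1-2dcl4-2 and 21.3% in dxo1-2, and the 21-nt class 23.6% and 71.0%.

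The difference in small RNAs between lines with and without dxo1-2 was not the same in the 2 backgrounds on the scale of normalized reads. For 22-nt RNAs of EXO the difference was 5888 normalized reads between dxo1-2dcl4-2 and dcl4-2, and 14.99 between dxo1-2 and Col-0. For 21-nt RNAs of EXO it was 2374 in the dcl4-2 background and 55.9 in the wild-type background, and for 24-nt RNAs 900 and 2.88. For 22-nt RNAs of EXL5 it was 935.4 and 2.44. These differences were not tested, since the family was chosen with them in view.

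Per kilobase of transcript, the order of the members could be set beside their mRNA. In dxo1-2, the only line besides Col-0 with both measurements, 21-nt RNAs stood at 46.6 normalized reads per kb at EXO, 15.7 at EXL3, 12.4 at EXL2, 3.65 at EXL4, 1.596 at EXL5, 0.755 at EXL1 and 0 at EXL6 and EXL7. This is the order of their mean FPKM in dxo1-2 (106.5, 69.5, 57.5, 40.5, 40.8, 17.8, 0 and 0.487) but for EXL4 and EXL5, whose mRNA levels overlapped, and the Spearman rho over the 8 genes was 0.97. With the Col-0 FPKM in place of the dxo1-2 FPKM the rho was 0.731. In Col-0 itself, 21-nt RNAs stood at 4.24 normalized reads per kb at EXL2, 4.17 at EXL4 and 1.06 at EXO. They stood there at 0.822 at EXL3, 0.423 at EXL1 and 0 at EXL5, EXL6 and EXL7, on 21 reads or fewer per member. This was not the order of the Col-0 FPKM, in which EXL3 came first at 100.8 FPKM. In dxo1-2dcl4-2 the 22-nt order was EXO (4795 per kb), EXL5 (632.4), EXL2 (156.2), EXL3 (128.8), EXL4 (12.2) and EXL1 (0.683), with a rho of 0.898 against the FPKM of dxo1-2. EXL5 and EXL4, at 40.8 and 40.5 FPKM in dxo1-2, were thus far apart in small RNA in the cross. EXL6 and EXL7, with mean FPKM of 0 and 0.487 in dxo1-2 and no small RNA, hold the bottom of each order, so each rho rests in part on them. The points share their libraries, and the mRNA is from 16-day-old and the small RNA from 10-day-old plants, so this is a description with no test.

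**Figure D5:**
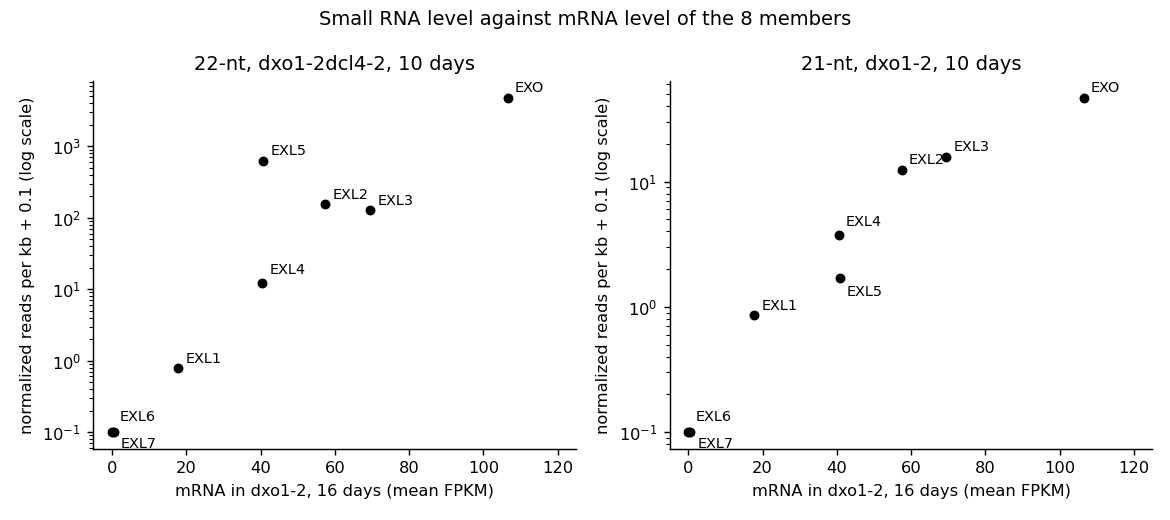
Small RNA level (normalized reads per kb plus 0.1, log scale) against mean FPKM in dxo1-2 for the 8 members, for 22-nt RNAs of dxo1-2dcl4-2 (left) and 21-nt RNAs of dxo1-2 (right), each point the mean of 3 libraries. EXO is highest in both panels, and EXL5 and EXL4, close to each other in mRNA at 40.8 and 40.5 FPKM, lie at 632.4 and 12.2 normalized reads per kb on the left.

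By normalized reads summed over the 3 classes, on the log2 scale over the 12 libraries, EXL5 was the member most like EXO (Pearson r 0.953), followed by EXL3 (0.936), EXL2 (0.864) and EXL4 (0.689). Outside the family, among 3914 genes compared, the most like EXO were AT1G54200 (0.9833), the cell wall protein gene CWLP (0.9738) and the auxin-responsive IAA1 (0.9734). CWLP stood at 15135 summed normalized reads in dxo1-2dcl4-2, 475.3 in dxo1-2, 18.0 in dcl4-2 and 40.5 in Col-0. AT1G54200 stood at 209.9 and IAA1 at 39.4 in dxo1-2dcl4-2, at 9.11 and 5.12 in dxo1-2, and both were listed at 0 in dcl4-2 and Col-0. The genes compared had a mean of at least 10 such reads over the 12 libraries, which these 2 reached through the cross. A gene with most of its reads in the cross correlates with EXO through that alone, and the family was chosen on these values. Nothing beyond the order and spacing of the lines is therefore read from these correlations. How reads that map to several genes were counted, and whether the counting used strand, is not given in the sources available here, so reads shared between similar members or with overlapping genes cannot be told apart.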

How the data were processed

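Members, gene lists and tests were chosen with earlier results of these data known. The mRNA values are FPKM as deposited by the authors; TopHat2 2.1.0, RSEM, Bowtie and TAIR10 are named in the submitters' processing notes, without their order or settings. The small RNA values are a signal deposited by the authors, normalized reads per gene in 21-nt, 22-nt and 24-nt tables. Whole reads were recovered for 100% of values above 0 (tolerance 0.001 reads). Members were found by locus tag, and transcript lengths are those of the FPKM table.

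limma 3.58.1 (R 4.3.3, mean-variance trend) was fitted over all 9 libraries to log2(FPKM + 1), leaving out genes averaging under 1 FPKM, with Benjamini-Hochberg adjusted p under 0.05. It was checked on simulated data. Member small RNAs were given no test. Over all genes, edgeR 4.0.16 quasi-likelihood tests on recovered reads, an alternative, called 54, 83, 289, 297 and 254 genes in the 21-nt class, 16, 121, 348, 379 and 241 in the 22-nt class, and 0 (207 at an unadjusted p under 0.05), 25, 487, 342 and 396 in the 24-nt class, for dxo1-2, dcl4-2 and dxo1-2dcl4-2 against Col-0, then dxo1-2dcl4-2 against dcl4-2 and against dxo1-2. Depth was estimated from low FPKM values, 94.1 to 97.6% of which lay near whole fragments. A floor was 3 reads over a group and intervals are exact at 95%, both for counting error only. The labels name no batch. Named genes were all 8 members, the 3 largest changes shared by both comparisons with Col-0 in each list, and the 3 genes most like EXO and EXL3. Alternatives were another pseudocount, no filter, centring, quantile normalization, no trend, a fit to 2 groups, the replicate block, scaling to the recovered reads of the 3 classes, edgeR, and each library left out.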

Additional observations from a re-analysis of the deposited data

Results flagged for a closer look

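All 6 tested members differed between the alleles in a test of that difference, dxo1-2 against the libraries labelled dxo1-1, in limma's fit over the 9 libraries. EXO (0.45), EXL1 (0.46), EXL3 (0.31) and EXL5 (0.74) were higher in dxo1-2 on the log2 scale, and EXL2 (-0.15) and EXL4 (-0.94) were lower. The largest gap was at EXL4, at 78.8 ± 5.66 FPKM in the libraries labelled dxo1-1 and 40.5 ± 2.89 FPKM in dxo1-2 (SD, n = 3 each). Over all tested genes, 22.3% were called higher and 15.7% lower in this comparison. With a single line per allele, the allele and any other difference between the lines cannot be told apart.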

How the results depend on the processing

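Against Col-0, EXO and EXL3 mRNA kept direction and call in every setting run. With libraries centred and with quantile normalization, 5 members were lower in dxo1-2 (2 on the deposited scale), through EXL1 (-0.39 and -0.41), EXL4 (-0.42 and -0.47) and EXL5 (-0.42 and -0.47), and EXL2 passed in the libraries labelled as dxo1-1 (-0.40 and -0.51). These settings gave 8002 and 7831 genes lower in the libraries labelled as dxo1-1 (4786 as deposited), and in dxo1-2 gave 5932 and 6131 higher (9520) and 7807 and 7464 lower (3890). Leaving out single libraries gave -0.16 to -0.13 for EXL2 in dxo1-2 against the libraries labelled as dxo1-1, where 1 to 2 members were lower. Same-numbered libraries did not deviate together (correlations of -0.034 to 0.094 for mRNA and -0.024 to 0.023 for small RNA). With the replicate block no member changed its mRNA call, and 9111 genes were higher in the libraries labelled as dxo1-1 and 9489 in dxo1-2.

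For EXO small RNA in dxo1-2dcl4-2, scaling to recovered reads gave log2 3.83, 7.05 and 5.58 over dxo1-2 in the 21-nt, 22-nt and 24-nt classes, folds of at least 556 and 1614 and a ratio of 207 over dcl4-2, and ratios of 3451 and 885.5 over Col-0 in the 22-nt and 24-nt classes; EXL4 in the 21-nt class turned to -0.20 over dcl4-2. edgeR gave 5.57 over dxo1-2 in the 21-nt class. Leaving out single libraries gave, for the cross, at least 1085 to 1895 (21-nt) and 2290 to 4176 (22-nt) and a ratio of 273 to 1230 (24-nt) over dcl4-2, and log2 9.92 to 12.21 (21-nt) and ratios of 2783 to 8412 (22-nt) and 932 to 3160 (24-nt) over Col-0. For dxo1-2 over Col-0 it gave log2 4.56 to 6.85 (21-nt) and ratios of 6.48 to 22.4 (22-nt) and 4.01 to 18.4 (24-nt). The 21-nt and 22-nt bounds over dcl4-2 rest on the floor of 3 reads, as does the lowest value of each ratio over Col-0, where no Col-0 read was left. The highest log2 values over Col-0 rest on the 0.5 added to the means, and the other values on 1 to 4 control reads. The non-overlap counts were recomputed after the data were seen: for dxo1-2 over Col-0 in the 24-nt class, 1 member was higher on the recovered-read scale (11.2% of all genes) and 0 to 1 with a library left out, 0 to 1 were lower there and in the 22-nt class, and for dcl4-2 over Col-0 0 to 1 were higher in the 24-nt and 0 to 1 lower in the 21-nt class. In the 24-nt class, edgeR called 0 of the 3360 genes it tested in dxo1-2 against Col-0, with 207 at an unadjusted p under 0.05. It called 396 in dxo1-2dcl4-2 against dxo1-2. limma tested 8473 genes under another filter and called 11 and 211, so these counts are not over the same genes. The causes were not tested.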
